A study of Mus musculus with 18 samples.

Results

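NRF2 and glutathione detoxification genes were examined across 18 samples of mouse liver and liver tumour profiled by RNA-seq. The set held 47 genes, taken by symbol from the table of 54838 genes, and all 47 had a mean of at least 0.5 TPM over the 18 samples (transcripts per 1000000, a level per gene length that sums to this total in every sample). It covers the NRF2 regulators and their reporter genes, glutathione synthesis and transferases, peroxidases, carbonyl and epoxide enzymes, exporters, pentose phosphate enzymes and other antioxidant enzymes. The samples were C57BL/6 livers in 6 groups of 3. WT and GKO (miR-181ab1 knockout, a deletion carried in every tissue) mice gave normal livers without treatment, and tumours and non-tumour livers after a single injection of diethylnitrosamine (DEN, a liver carcinogen that hepatocyte enzymes activate) at 25 mg/kg on postnatal day 12. The labels give all 18 samples an age of 36 weeks. The deletion is present in all cells of the GKO mice, so effects in hepatocytes and in other cells cannot be told apart. The labels number the samples 1 to 3 within each group and do not name the animals, so p-values measure the spread between these samples.

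NRF2, the product of Nfe2l2, is the transcription factor that turns on the defence against oxidants and electrophiles. In unstressed cells KEAP1 binds it and delivers it for degradation. When KEAP1 is modified, or when either gene is mutated, NRF2 accumulates, pairs with a small MAF protein and binds antioxidant response elements near genes that make glutathione, couple it to toxins, pump the conjugates out and supply NADPH. In liver this programme clears drugs and carcinogens, and some liver tumours keep it switched on.

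The core letters of the antioxidant response element were searched in RefSeq promoters of GRCm38.p6, each 300 bases long and ending shortly after a transcription start. The motif TGACNNNGC was searched on both strands. It was found in the promoters of 11 of the 40 genes of the set with an entry (27.5%), against 14% of all 27025 genes. The fuller form TGACTCAGC, which also contains the AP-1 motif TGACTCA, was found in 1 of the 40 (Prdx1, read on the other strand). TGACTCA, counted whether or not the fuller form was present, was found in 10% of the set and 5.95% of all genes. The following 5 promoters are shown 5′ to 3′ on the strand of the gene, with the TGACNNNGC match on either strand in capitals. Srxn1, Txnrd1, Abcc4 and Prdx1 are shown because each was higher in WT tumours 1 and 2 than in the other 4 tumours, and Gclm because among the treated samples it was raised in WT non-tumour 2 and not in those tumours. Pgd was likewise higher in WT tumours 1 and 2 than in the other 4. Gsta3, Nfe2l2 and Ugdh were raised in WT non-tumour 2 and in neither WT tumour 1 nor 2. Abcc2 was raised in WT non-tumour 2 and in both of these tumours. Sod1 was raised in none of them and was lower in every tumour than in any non-tumour. The promoters of Pgd, Gsta3, Nfe2l2, Ugdh, Abcc2 and Sod1 also held a match and are not shown.
Srxn1, chr2:152105274-152105573, plus strand: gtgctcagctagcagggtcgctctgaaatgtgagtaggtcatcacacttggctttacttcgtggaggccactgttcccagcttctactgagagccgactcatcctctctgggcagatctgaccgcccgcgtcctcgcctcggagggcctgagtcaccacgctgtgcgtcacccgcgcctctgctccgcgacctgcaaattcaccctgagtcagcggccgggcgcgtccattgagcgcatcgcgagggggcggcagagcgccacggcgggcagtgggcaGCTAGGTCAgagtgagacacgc
Txnrd1, chr10:82858956-82859255, plus strand: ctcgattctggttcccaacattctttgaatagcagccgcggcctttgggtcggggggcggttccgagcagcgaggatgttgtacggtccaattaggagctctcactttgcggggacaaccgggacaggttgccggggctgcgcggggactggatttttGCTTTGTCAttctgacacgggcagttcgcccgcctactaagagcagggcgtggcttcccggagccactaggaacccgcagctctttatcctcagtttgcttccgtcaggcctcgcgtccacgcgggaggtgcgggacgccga
Abcc4, chr14:118706170-118706469, minus strand: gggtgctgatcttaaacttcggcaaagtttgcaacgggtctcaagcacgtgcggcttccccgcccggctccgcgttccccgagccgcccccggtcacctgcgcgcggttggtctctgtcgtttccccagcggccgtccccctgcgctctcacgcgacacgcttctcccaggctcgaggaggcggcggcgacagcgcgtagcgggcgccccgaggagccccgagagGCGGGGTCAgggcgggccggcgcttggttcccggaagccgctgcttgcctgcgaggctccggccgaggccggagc
Prdx1, chr4:116685349-116685648, plus strand: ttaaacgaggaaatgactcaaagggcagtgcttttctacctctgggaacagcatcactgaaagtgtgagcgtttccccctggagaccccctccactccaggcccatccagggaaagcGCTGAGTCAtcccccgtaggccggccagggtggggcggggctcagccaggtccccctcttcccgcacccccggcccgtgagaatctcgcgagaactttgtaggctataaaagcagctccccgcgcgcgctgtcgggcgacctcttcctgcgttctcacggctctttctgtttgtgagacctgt
Gclm, chr3:122245307-122245606, plus strand: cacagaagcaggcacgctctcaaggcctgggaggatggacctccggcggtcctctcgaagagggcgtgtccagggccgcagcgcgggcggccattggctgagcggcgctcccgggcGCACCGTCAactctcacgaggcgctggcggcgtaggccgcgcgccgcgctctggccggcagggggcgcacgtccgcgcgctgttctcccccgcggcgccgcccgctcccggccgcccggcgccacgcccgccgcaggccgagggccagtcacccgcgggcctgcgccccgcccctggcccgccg
No match stood in this window for Nqo1, Cbr3, Slc7a11, Gpx2, Gsta1 or Gstm3, which says only that these letters are not in these 300 bases.

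Reads recovered from the TPM values ranged from 11925055 to 20751348 per sample. The deleted genes could not check the labels, since Mir181b-1 was at 0 in all 18 samples and Mir181a-1 in 17, with 1 read in GKO tumour 3. All tissues expressed the hepatocyte genes Alb, Apoa1 and Ttr at no less than 6881 TPM. Among non-tumours, WT non-tumour 2 stood apart. Its log2 values correlated with those of the other 5 non-tumours with Pearson's r of 0.899 to 0.933, and the other 10 pairs had 0.948 to 0.979. WT tumours 1 and 2 correlated with 0.982, and the other 14 pairs of tumours with 0.911 to 0.95. Summed markers of other cells differed in WT non-tumour 2. Macrophage genes came to 49.7 TPM against 98.4 to 541 in the other non-tumours, fibroblast genes to 29.8 against 40.6 to 65.8 and endothelial genes to 34.6 against 55.9 to 74.4. Its B cell genes came to 3.05 TPM against 10.9 to 23.6, and its T cell genes, with 3.16, lay within the 2.11 to 9.52 of the others. Its cholangiocyte genes were higher, with 76.9 TPM against 30.2 to 53.7, of which Spp1 made up 74.2. Genes within the lists went different ways. Clec4f, Cd5l and Marco (macrophage), Dcn (fibroblast) and Clec4g (endothelial) were the lowest of the 6 non-tumours, whereas Col1a1, Col1a2 and Col3a1 (fibroblast) and Pecam1 and Cdh5 (endothelial) were the highest, and Cd68 (macrophage) was the second highest with 25.2 TPM. Its 8 pericentral hepatocyte genes summed to 10412 TPM, within the 5005 to 12043 of the other non-tumours and above the 32.6 to 1902 of the 6 tumours. Within that list Glul and Slc1a2 were low, at 159 and 1.37 TPM, where no other non-tumour had less than 448 and 14.8. Cyp1a2, Axin2 and Lgr5 were high, at 1245, 6.12 and 2.21 TPM, where no other non-tumour had more than 730, 3.43 and 0.896. The part of these differences in the results below was not tested, and in bulk tissue fewer cells of a type and less RNA per cell cannot be told apart.

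Untreated livers expressed most of the set strongly. The median over the 6 normal livers was at least 100 TPM for 16 of the 47 genes and at least 10 TPM for 40. TPM allows levels of different genes to be compared per length. On this scale Gstp1, the pi class transferase of mouse liver, was the highest with a median of 6939.7 TPM, followed by the peroxidase gene Gpx1 with 2450.2, the mu class transferase gene Gstm1 with 2379.8 and catalase (Cat) with 1312. Some other known NRF2 targets were far lower, with medians of 8.05 TPM for Nqo1, 2.54 for Gsta1 and 2.07 for Cbr3, whereas Gclc and Gclm had 163 and 66.5. Slc7a11 and Gpx2 had 2 reads or fewer in every normal liver. No gene of the set with a value above 0 in all 3 samples varied by more than 10-fold within either group of normal livers. In contrast, 8 did so among WT non-tumours, 11 among WT tumours, 6 among GKO tumours and 0 among GKO non-tumours. The share of all genes that varied this much was not counted, so whether this spread is particular to the set is not known.

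After DEN the set was high in 3 samples, WT non-tumour 2 and WT tumours 1 and 2. A gene was counted as raised in a sample when (TPM + 1) was at least 2-fold the same value for the median normal liver. In WT non-tumour 2, 33 of the 47 genes were raised, or 70.2%, against 16.2% of all 13914 genes. WT tumour 1 had 21 raised (44.7%, all genes 16.6%) and WT tumour 2 had 20 (42.6%, all genes 17.6%). WT tumour 3 had only 2 (4.26%, all genes 15.3%), while 11 of its genes were at least 2-fold lower (23.4%, all genes 7.16%). GKO tumour 1 had 10 raised (21.3%, all genes 17.5%), GKO tumour 2 had 3 (6.38%, all genes 13.4%) and GKO tumour 3 had 4 (8.51%, all genes 22.4%). The shares raised in the 3 GKO tumours were thus close to or below those of all genes. GKO tumours 2 and 3 had 7 and 13 genes at least 2-fold lower (14.9% and 27.7%), against 4.48% and 5.77% of all genes. WT tumours 1 and 2 and GKO tumour 1 had 3, 4 and 4 lower (6.38%, 8.51% and 8.51%), against 7.74%, 6.63% and 7.04% of all genes. WT non-tumours 1 and 3 had 5 and 2 genes raised (10.6% and 4.26%), against 5.08% and 6.28% of all genes. In GKO non-tumours 1, 2 and 3 the counts were 6, 2 and 3 (12.8%, 4.26% and 6.38%), against 5.95%, 2.11% and 2.79% of all genes. Slc7a11 and Gpx2 had means under 0.5 TPM outside WT non-tumour 2 and WT tumours 1 and 2, and without them the counts in these 3 samples were 31 of 45, 19 of 45 and 18 of 45. These are single samples compared with the median of normal livers, and no test was made on them.

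**Figure D1:**
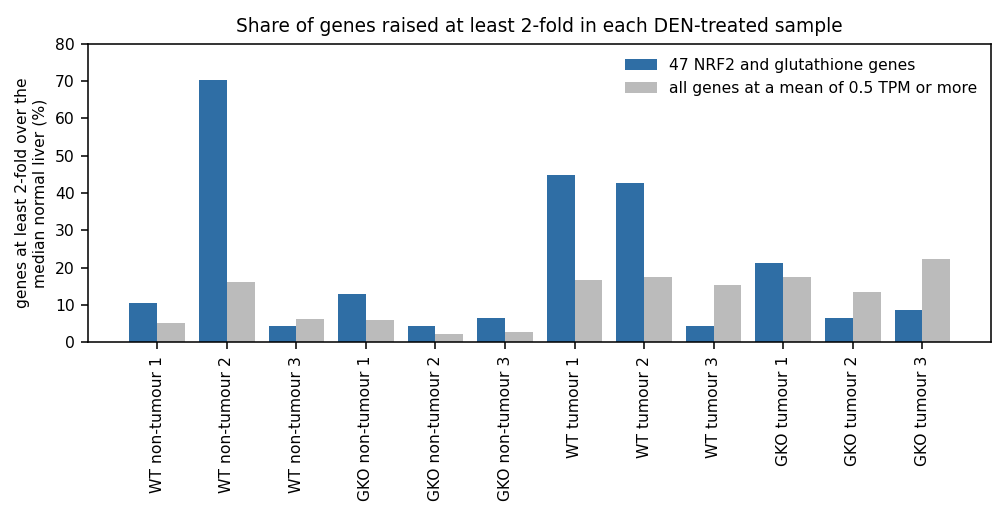
Share of genes at least 2-fold above the median of the 6 normal livers (y axis, %) in each of the 12 DEN-treated samples (x axis), for the 47 genes of the set (blue bars) and all 13914 genes (grey bars). The blue bar reaches 70.2% in WT non-tumour 2, 44.7% in WT tumour 1 and 42.6% in WT tumour 2, and stays at 21.3% or less in the other 9 samples.

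Many of the raised genes were the same in both tissues. Of the 47 genes, 20 were raised in WT non-tumour 2 and in both WT tumours 1 and 2 (6.19% of all genes), among them Nqo1, Srxn1, Slc7a11, Cbr1, Cbr3, Gpx2, Abcc4, Pgd, Gss, 3 alpha class and 5 mu class transferase genes. For 19 genes these 3 samples were the 3 highest of all 18 (2.42% of all genes). Without Slc7a11 and Gpx2 these counts were 18 of 45 and 17 of 45. A further 12 genes were raised in WT non-tumour 2 and in neither WT tumour 1 nor 2, including Hmox1, Gclc, Gclm, Gsr, Nfe2l2 and Ugdh, or 25.5% against 7.97% of all genes. None of the 47 was raised in WT tumours 1 and 2 and not in WT non-tumour 2, as 7.36% of all genes were. WT non-tumour 2 was the highest of the 18 samples for 33 genes (15% of all genes). WT tumours 1 and 2 were both above the other 4 tumours for 25 genes (14.3% of all genes), and GKO tumour 1 was the highest of its group for 28 (25.1% of all genes). Without Slc7a11 and Gpx2 these last counts were 31, 23 and 26 of 45. The samples named here were singled out after their values were seen. Of the 46 measured genes of a wider NRF2 pathway list, 18 (39.1%) were raised in WT non-tumour 2, 13 (28.3%), 12 (26.1%) and 9 (19.6%) in WT tumours 1, 2 and 3, and 12 (26.1%), 8 (17.4%) and 10 (21.7%) in GKO tumours 1, 2 and 3, so that on this list WT tumours 1 and 2 had about as many as GKO tumour 1.

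**Figure D2:**
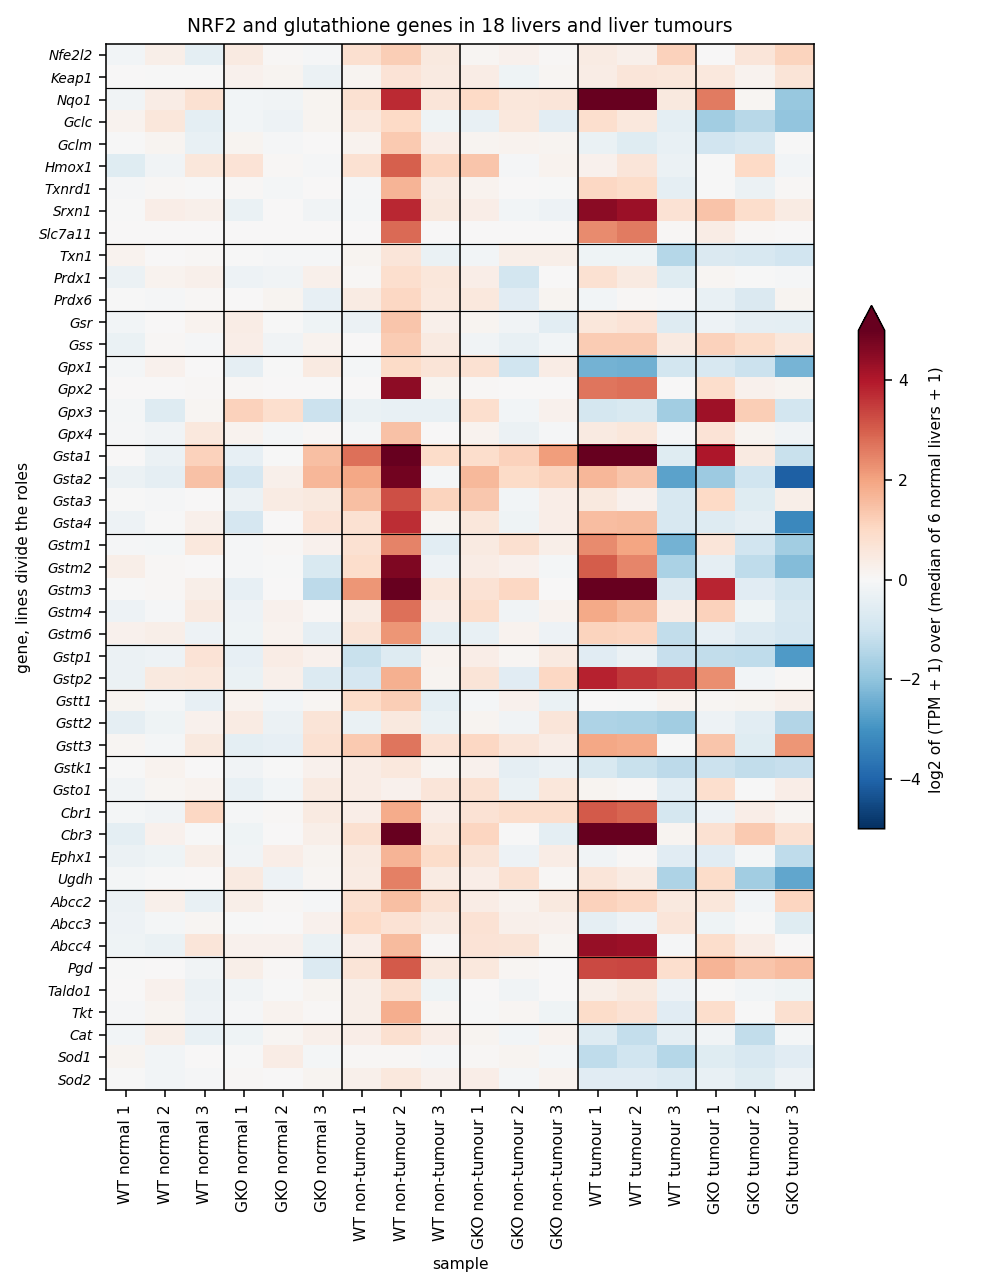
Heat map of the 47 genes (rows, ordered by role) in the 18 samples (columns), coloured by the log2 of (TPM + 1) over the same value for the median of the 6 normal livers, from blue (lower) to red (higher). The columns of WT non-tumour 2 and WT tumours 1 and 2 are red over most of the alpha class, mu class and carbonyl reductase rows. Most reporter rows are red in WT non-tumour 2, and those of Nqo1, Srxn1 and Slc7a11 also in WT tumours 1 and 2. In all these rows WT tumour 3 and GKO tumours 2 and 3 are mostly pale or blue.

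Neither regulator passed the test in any comparison. Nfe2l2 (in GENCODE M21 on GRCm38, as all gene positions here, chr2:75675513-75704641, - strand) had 33.2, 44.9 and 26.2 TPM in WT non-tumours, 20.1, 21.3 and 19.3 in GKO non-tumours, 24.6, 21.9 and 41.9 in WT tumours and 18.7, 28.8 and 40.6 in GKO tumours, against 12.7 to 25.6 in normal livers. Its highest value was in WT non-tumour 2, but WT tumours 1 and 2 had less of it than WT tumour 3. Keap1 (chr9:21229730-21239361, - strand), which encodes the NRF2 inhibitor, ranged from 17.6 to 33.4 TPM after DEN and 16.8 to 24.3 in normal livers. Between GKO and WT tumours the log2 fold change of TPM + 1, given here with its standard error (SE) from the 6 samples, was -0.01 (SE 0.36, limma adjusted p = 0.996) for Nfe2l2 and -0.06 (SE 0.21, limma adjusted p = 0.946) for Keap1. Nfe2l2 was lower in every GKO non-tumour than in any WT non-tumour, with a log2 fold change of -0.72 (SE 0.24, limma adjusted p = 0.643). These are levels of mRNA, whereas KEAP1 acts on the NRF2 protein.

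Among the 7 direct reporter genes, Nqo1 and Srxn1 showed the pattern most clearly. Nqo1 (chr8:107388225-107403206, - strand) encodes a quinone reductase and had 14.5, 118 and 12.9 TPM in WT non-tumours, 17.1, 12.5 and 12.9 in GKO non-tumours, 291, 284 and 11.7 in WT tumours and 53.9, 8.74 and 1.41 in GKO tumours. Normal livers had 7.02 to 14.2. WT tumours 1 and 2 and WT non-tumour 2 lay above all other samples, GKO tumour 1 came next, and WT tumour 3 overlapped the normal livers. Srxn1 (chr2:152105516-152111376, + strand), the sulfiredoxin that repairs overoxidised peroxiredoxins, had 28.8, 444 and 44 TPM in WT non-tumours, 737, 619 and 51.6 in WT tumours and 84.7, 58.9 and 42.3 in GKO tumours, with 24.9 to 40.0 in normal livers. Both WT groups thus held high and low samples of each gene. For GKO against WT tumours the log2 fold changes were -3.23 (SE 1.51, limma adjusted p = 0.585) and -2.25 (SE 0.97, limma adjusted p = 0.56), and neither passed the test.

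Txnrd1 followed the same samples, and so did Slc7a11, which reached the minimum mean of 0.5 TPM only through them. The pattern of Slc7a11 thus follows from that minimum and gives no support. Txnrd1 (chr10:82833951-82897712, + strand), the cytosolic thioredoxin reductase, had 98.9 TPM in WT non-tumour 2 and 62.4 and 57.4 in WT tumours 1 and 2, against 21.3 to 39.4 in the other 15 samples. Slc7a11 (chr3:49892526-50443614, - strand) encodes the cystine importer that feeds glutathione synthesis. Its reads numbered 2, 696 and 1 in WT non-tumours, 481, 580 and 5 in WT tumours and 38, 6 and 0 in GKO tumours, with 0 to 3 in every normal liver and GKO non-tumour. A count of 3 reads was treated as the limit of detection, so the gene was detected in the 3 samples named above, at low levels in GKO tumours 1 and 2 and WT tumour 3, and in none of the other 12. The log2 fold change of GKO against WT tumours was -1.53 (SE 0.65, limma adjusted p = 0.56).

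Gclc, Gclm and Hmox1 were not raised 2-fold in WT tumours 1 and 2. Gclc and Gclm encode the catalytic and modifier subunits of glutamate-cysteine ligase, the first step of glutathione synthesis. Gclc (chr9:77754535-77794485, + strand) had 289, 238 and 117 TPM in WT tumours and 48.6, 62.5 and 41.3 in GKO tumours, and the groups did not overlap. Non-tumours had 233, 331 and 142 in WT and 126, 237 and 111 in GKO mice, with 117 to 243 in normal livers, so the 3 GKO tumours were the lowest of the 18 samples. Gclc fell in GKO tumours against GKO non-tumours with a log2 fold change of -1.56 (SE 0.34, limma adjusted p = 0.0308). For GKO against WT tumours the log2 fold change was -1.98 (SE 0.37, limma adjusted p = 0.287), which did not pass the test. The interaction of genotype and tissue, which is the GKO effect in tumours minus that in non-tumours, was -1.41 (SE 0.59, limma adjusted p = 0.473).

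Gclm (chr3:122245557-122270732, + strand) peaked in WT non-tumour 2 at 166 TPM, while WT tumours had 52.6, 43.6 and 50.6 and GKO tumours 34, 37.6 and 65, against 51.9 to 74 in normal livers. Hmox1 (chr8:75093621-75100589, + strand), the haem oxygenase that is also abundant in macrophages, had 20.4, 98.2 and 25 TPM in WT non-tumours, 31.7, 11.2 and 13 in GKO non-tumours, 13.6, 18.3 and 9.12 in WT tumours and 11.2, 23.7 and 10.4 in GKO tumours. WT non-tumour 2 again held the highest value. The macrophage gene Cd68 was second highest there among non-tumours while Clec4f, Cd5l and Marco were lowest, and the part of macrophages in Hmox1 was not tested. WT tumours 1 and 2 lay within the range of normal livers, 7.15 to 19.4. WT tumours against WT non-tumours gave log2 fold changes of -1.04 (SE 0.34, limma adjusted p = 0.155) for Gclm and -1.43 (SE 0.60, limma adjusted p = 0.248) for Hmox1, neither past the test.

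**Figure D3:**
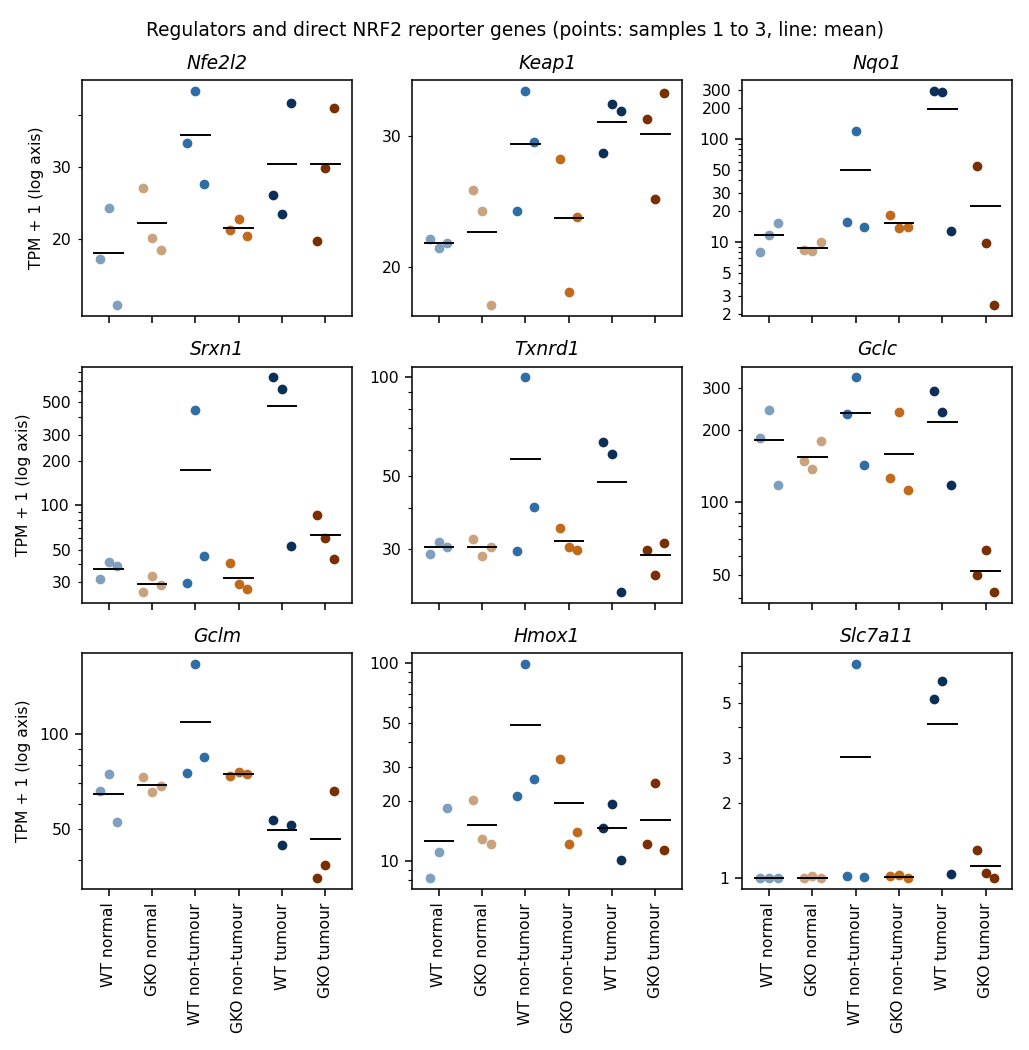
TPM + 1 (y axes, log scale) of the regulators Nfe2l2 and Keap1 and the 7 direct NRF2 reporter genes in the 6 groups (x axes). Points are samples 1 to 3 from left to right and lines are group means. For Nqo1, Srxn1, Txnrd1 and Slc7a11 the second WT non-tumour and the first and second WT tumours stand above the rest, and for Gclc the 3 GKO tumours are the lowest.

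The other steps of glutathione metabolism followed in part. Gss, glutathione synthetase, had 31.3, 74.3 and 41.6 TPM in WT non-tumours, 27, 23.7 and 27.6 in GKO non-tumours, 74.3, 75.2 and 42.1 in WT tumours and 69.1, 57.8 and 45.4 in GKO tumours. All 3 GKO tumours lay above all 3 GKO non-tumours, and Gss rose there with a log2 fold change of 1.09 (SE 0.23, limma adjusted p = 0.0291). Gclc fell in the same comparison, so the genes of the first and second step of synthesis differed in opposite directions. Gsr, which reduces oxidised glutathione, had 146 TPM in WT non-tumour 2 and 84.1 and 90.6 in WT tumours 1 and 2, against 35.7 to 72.6 in the other 15 samples.

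The glutathione peroxidases differed in their order. Gpx1 (chr9:108338903-108340343, + strand), the abundant cytosolic enzyme, had 2275, 4779.6 and 3869 TPM in WT non-tumours and 473, 461 and 1313 in WT tumours, without overlap, and fell by 2.40 on the log2 scale (SE 0.50, limma adjusted p = 0.048). In GKO mice it had 4196, 1235 and 3135 TPM in non-tumours and 1399, 1169.7 and 494 in tumours, a log2 fold change of -1.44 (SE 0.56, limma adjusted p = 0.126). Gpx2, the enzyme best known from the gut epithelium, had 0, 551 and 3 reads in WT non-tumours, 144, 150 and 0 in WT tumours and 25, 4 and 3 in GKO tumours, with 1 read or fewer in each normal liver and GKO non-tumour. It was thus above the limit of detection in the same 3 samples and, at lower counts, in GKO tumours 1 and 2. Gpx2 reached the minimum mean of 0.5 TPM only through those 3 samples, so its pattern gives no support. Gpx3, the secreted plasma enzyme, did not follow them. It had 5.4, 6.11 and 2.56 TPM in WT tumours and 226, 26.9 and 5.31 in GKO tumours, the highest of all 18 samples being GKO tumour 1, and the log2 fold change of GKO against WT tumours was 2.65 (SE 1.17, limma adjusted p = 0.567). Gpx4, which reduces lipid hydroperoxides, had 1912 TPM in WT non-tumour 2 and 568 to 1119 elsewhere.

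The alpha and mu class transferases, which couple glutathione to electrophiles, held the widest ranges of the set. Gsta1 (chr9:78230656-78242684, + strand) had 22.8, 917 and 5.75 TPM in WT non-tumours, 5.48, 6.94 and 14.3 in GKO non-tumours, 303, 301 and 1.3 in WT tumours and 57.3, 3.84 and 0.637 in GKO tumours, with 1.66 to 9.09 in normal livers. Gstm3 (chr3:107963696-107969283, - strand) had 125, 8423 and 38.5 TPM in WT non-tumours, 44, 54.3 and 26.2 in GKO non-tumours, 1394, 990.2 and 15.5 in WT tumours and 379.5, 17.5 and 13.3 in GKO tumours, with 9.86 to 32.7 in normal livers. On the TPM + 1 scale WT non-tumour 2 was 259-fold above the median normal liver for Gsta1 and 310.0-fold for Gstm3. In both genes WT tumour 3 and GKO tumours 2 and 3 were within or below the range of normal livers, and GKO tumour 1 lay between them and WT tumours 1 and 2.

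The abundant Gstm1 reached 13320.2 TPM in WT non-tumour 2 and 12107 and 9361 in WT tumours 1 and 2, against 466 in WT tumour 3 and 3612, 1222 and 716 in GKO tumours. Gstm2 had 1506, 482 and 321 TPM in the same 3 samples and 12.1 to 107 in the other 15. Gstm4, Gstm6 and Gsta4 also had their 3 highest values in these samples, where they had 349.9, 408 and 1074 TPM in WT non-tumour 2. Gsta2 had 125, 79.5 and 88.4 TPM in GKO non-tumours and 10.8, 19.8 and 1.45 in GKO tumours, and fell by 3.52 on the log2 scale (SE 0.72, limma adjusted p = 0.0252), the largest change of the set in that comparison. Gsta3 was at least 2-fold above the median normal liver in all 3 WT non-tumours, with 427, 1427 and 329.8 TPM, and its log2 fold change over WT normal livers was 1.97 (SE 0.52, limma adjusted p = 0.124). Several of these genes share sequence with close relatives, so reads may have been split or lost between them. Of the 75-base stretches of their transcripts, 84.7% for Gsta1, 36.6% for Gsta2, 21.6% for Gstm3 and 11.7% for Gstm1 also occurred in another gene, and 0% for Gsta3 and Gsta4.

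The pi class gene Gstp2 was the only gene of the set raised 2-fold in all 3 WT tumours (2.13%, all genes 6.96%). Gstp2 (chr19:4040285-4046023, - strand) had 27, 168 and 53.2 TPM in WT non-tumours, 76.1, 32.7 and 102 in GKO non-tumours, 712, 581 and 499.8 in WT tumours and 245, 44 and 50.3 in GKO tumours. WT tumours lay above all other groups, including GKO tumours, and within the latter only GKO tumour 1 was above the non-tumours. Gstp2 rose in WT tumours over WT non-tumours with a log2 fold change of 3.22 (SE 0.62, limma adjusted p = 0.0381). For GKO against WT tumours it was -2.84 (SE 0.63, limma adjusted p = 0.363), which did not pass the test over all genes, and the interaction of genotype and tissue was -2.86 (SE 1.04, limma adjusted p = 0.454). Gstp1, far more abundant than Gstp2 in normal livers, had 4701, 5624 and 3089 TPM in WT tumours and 2966, 2913 and 986 in GKO tumours, and fell in GKO tumours against GKO non-tumours with a log2 fold change of -2.05 (SE 0.44, limma adjusted p = 0.0305). Of the 75-base stretches, 50.1% of those of Gstp2 and 29.2% of those of Gstp1 also occurred in another gene, so the levels of both, and of Gstp2 in particular, are uncertain.

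Of the theta, kappa and omega class transferases only Gstt3 was raised 2-fold in WT tumours 1 and 2, with 41.3, 38.5 and 9.94 TPM in WT tumours and 6.85 to 17.8 in normal livers. On the TPM + 1 scale these 2 tumours were 3.83-fold and 3.57-fold above the median normal liver. GKO tumours 1, 2 and 3 were at 2.62-fold, 0.66-fold and 4.58-fold, so the highest tumour was GKO tumour 3. Gstk1, the kappa class enzyme of mitochondria and peroxisomes, had 225, 252 and 185 TPM in WT non-tumours, 100.3, 79.2 and 68.3 in WT tumours, 199, 127 and 143 in GKO non-tumours and 81, 72.2 and 76.5 in GKO tumours. It fell in tumours of both genotypes, with log2 fold changes of -1.41 (SE 0.25, limma adjusted p = 0.03) in WT and -0.99 (SE 0.25, limma adjusted p = 0.0424) in GKO mice. Gstt2 had 79.9, 141 and 80.2 TPM in WT non-tumours, 33.5, 32.9 and 29.8 in WT tumours and 84.7, 70.3 and 36.1 in GKO tumours. Its WT tumours were the 3 lowest samples of all 18, and the log2 fold change to WT non-tumours was -1.56 (SE 0.28, limma adjusted p = 0.0314). Gstt1 ranged from 373 to 449 TPM over the 6 tumours and Gsto1 from 61.8 to 161.

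Of the carbonyl reductase genes, Cbr3 (chr16:93683215-93690990, + strand) had 4.37, 143 and 3.43 TPM in WT non-tumours, 5.5, 2.04 and 1.19 in GKO non-tumours, 539.7, 491 and 2.35 in WT tumours and 4.14, 6.63 and 4.27 in GKO tumours, with 1.17 to 2.72 in normal livers. WT tumours 1 and 2 lay 176-fold and 160.0-fold above the median normal liver on the TPM + 1 scale, and WT tumour 3 lay 1.09-fold above it. Cbr3 had the largest log2 fold change of the set between GKO and WT tumours, -4.02 (SE 1.84, limma adjusted p = 0.575), and did not pass the test. Cbr1, its neighbour on chromosome 16, had 783, 701 and 49.5 TPM in WT tumours and 77.5, 116 and 98.5 in GKO tumours.

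Abcc4 (chr14:118482692-118706219, - strand), which exports conjugates and nucleotides, had 1.1, 4.03 and 0.729 TPM in WT non-tumours, 33, 31 and 0.603 in WT tumours and 2.1, 1.13 and 0.706 in GKO tumours, with 0.313 to 1.51 in normal livers. It was higher in both WT tumours 1 and 2 than in WT non-tumour 2, as were 8 other genes of the set, among them Nqo1, Gstp2 and Cbr3. Abcc2, the canalicular pump, and Abcc3, the basolateral one, stayed within 34.6 to 85.7 and 46.1 to 109.7 TPM over the 6 tumours. Abcc2 did not overlap between GKO and WT non-tumours, with 50.2, 43.8 and 54.7 against 68.1, 112 and 65.4 TPM and a log2 fold change of -0.67 (SE 0.27, limma adjusted p = 0.643). Ugdh, which makes the sugar donor of glucuronidation, had 242 TPM in WT non-tumour 2, 62.8, 54.9 and 13.2 in WT tumours and 78.9, 11.4 and 5.94 in GKO tumours. Ephx1, the microsomal epoxide hydrolase, had 1610.2 TPM in WT non-tumour 2 and 203 to 520.4 in tumours.

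**Figure D4:**
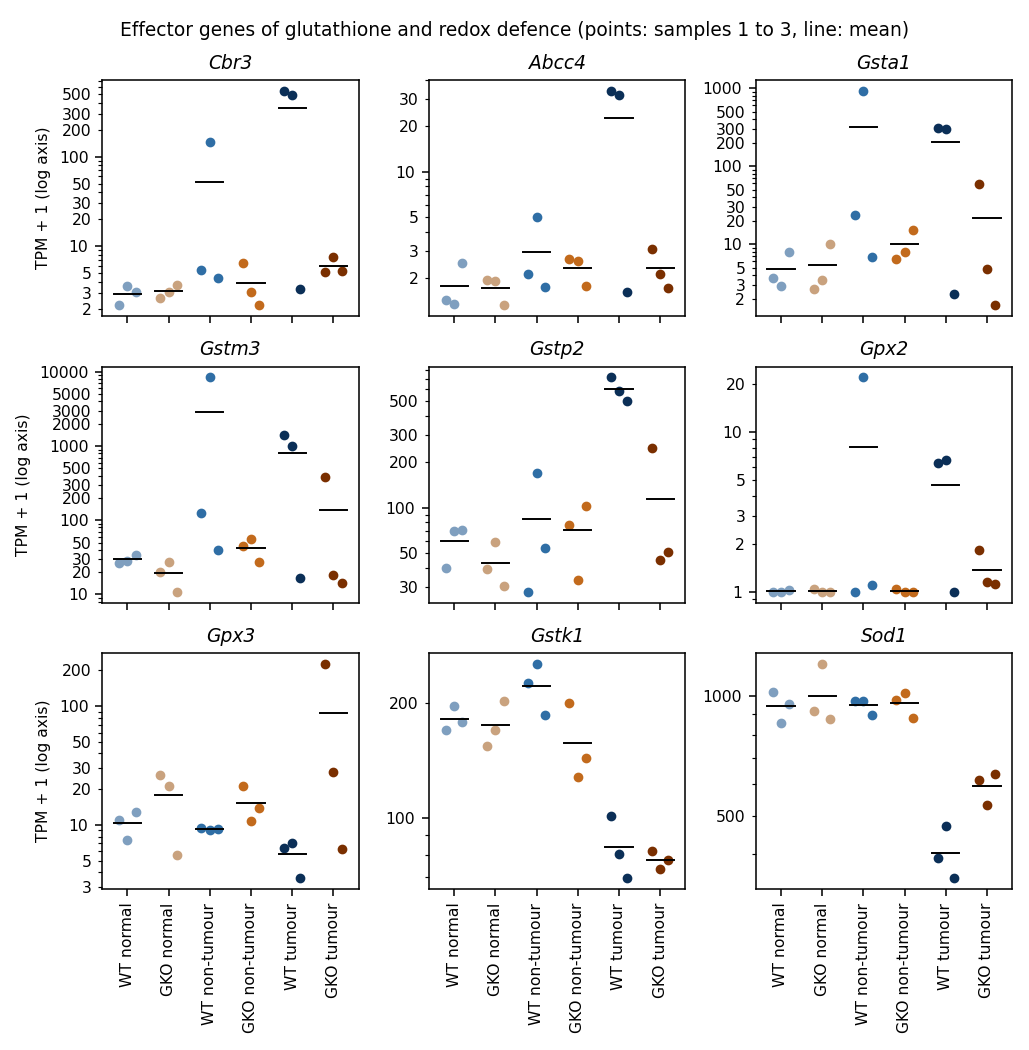
TPM + 1 (y axes, log scale) of 9 effector genes in the 6 groups (x axes), with points for samples 1 to 3 from left to right and lines for group means. Cbr3, Abcc4, Gsta1, Gstm3 and Gpx2 are high in the first and second WT tumours and not in the third, Gstp2 is high in all 3 WT tumours, Gpx3 peaks in the first GKO tumour, and Gstk1 and Sod1 are lower in all 6 tumours.

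The pentose phosphate enzymes supply the NADPH that reduces glutathione and thioredoxin. Pgd (chr4:149149991-149166771, - strand), 6-phosphogluconate dehydrogenase, had 9, 52.6 and 8.01 TPM in WT non-tumours, 8.18, 5.86 and 5.6 in GKO non-tumours, 62.6, 64.5 and 10.5 in WT tumours and 19.9, 15.9 and 17.6 in GKO tumours. It was the only gene of the set that was at least 2-fold above the median normal liver in all 3 GKO tumours (2.13%, all genes 7.26%), and it rose over GKO non-tumours with a log2 fold change of 1.33 (SE 0.22, limma adjusted p = 0.0144). WT tumours 1 and 2 and WT non-tumour 2 lay above all GKO tumours, and WT tumour 3 below them. Tkt had 57.3, 50.2 and 19.8 TPM in WT tumours and 56.2, 29.8 and 53.5 in GKO tumours, and Taldo1 had 125 to 210.1 over the 6 tumours.

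Catalase and the superoxide dismutases, which remove peroxide and superoxide, had lower values in every WT tumour than in any WT non-tumour. Sod1 (chr16:90220754-90226329, + strand) had 969, 973 and 896 TPM in WT non-tumours, 978, 1019 and 878 in GKO non-tumours, 391, 469 and 347 in WT tumours and 613, 531 and 635 in GKO tumours. No tumour overlapped any non-tumour. The log2 fold change was -1.24 (SE 0.23, limma adjusted p = 0.0338) in WT mice and -0.69 (SE 0.22, limma adjusted p = 0.0806) in GKO mice, where it did not pass the test. GKO tumours had more Sod1 than WT tumours in every sample, with a log2 fold change of 0.57 (SE 0.22, limma adjusted p = 0.537), also not past the test. Sod2 had 26.4 to 29.1 TPM in WT tumours against 50.7 to 61.7 in WT non-tumours, a log2 fold change of -0.94 (SE 0.20, limma adjusted p = 0.053). Cat had 842, 574 and 960.1 TPM in WT tumours against 1657, 2288 and 1645 in WT non-tumours, a log2 fold change of -1.25 (SE 0.29, limma adjusted p = 0.0707). Of the 3 genes only Sod1 passed the test.

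Thioredoxin (Txn1) takes electrons from Txnrd1 to reduce disulfides and hands them to the peroxiredoxin Prdx1, whereas Prdx6 reduces peroxides with glutathione. Txn1 had 837, 1153 and 1128 TPM in GKO non-tumours and 568, 533 and 474 in GKO tumours, and fell with a log2 fold change of -0.97 (SE 0.24, limma adjusted p = 0.0417). In WT mice it had 1027, 1421 and 729 TPM in non-tumours and 806, 799.7 and 343 in tumours, which overlapped. Prdx1 had 690.3 TPM in WT non-tumour 2, 645 in WT tumour 1 and 202 to 571 in the other samples, and Prdx6 had 355 TPM in WT non-tumour 2 and 104 to 193 in tumours.

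Between GKO and WT tumours, 36 of the 47 genes were lower and 11 higher in GKO tumours, with a median log2 fold change of -0.39 against 0.09 over all 13964 genes tested. None of the 47 passed the test at an adjusted p under 0.05 by limma, where 0.0215% of all genes did, and limma on the recovered reads (voom) also called 0. At an unadjusted p under 0.05 there were 4 lower genes (Gclc, Gstp2, Gsta4 and Slc7a11) and 2 higher ones (Gstt2 and Sod1), or 12.8% against 8.87% of all genes. The groups did not overlap for 5 genes (Gclc, Gstp1 and Gstp2 lower, Gstt2 and Sod1 higher), or 10.6%, against 14.7% of all genes. Without WT tumour 3, 10 genes were called, all lower in GKO tumours: Cbr3, Abcc4, Cbr1, Srxn1, Slc7a11, Gclc, Pgd, Gstm6, Gpx2 and Gstm2. They were 21.3% of the set, against 1.05% of all genes called in that fit. Slc7a11 and Gpx2 reached the minimum mean of 0.5 TPM only through WT non-tumour 2 and WT tumours 1 and 2, so their differences follow from that minimum and give no support. Without them 5 of 45 genes had an unadjusted p under 0.05 and 8 of 45 were called without WT tumour 3. The WT side then held only tumours 1 and 2, whose profiles correlated with r = 0.982. A separate fit averaged these 2 as 1 sample but kept WT tumour 3, and called 0 genes, as did the fit of all tumours. It therefore does not bear on the 10 calls made without WT tumour 3. Without GKO tumour 1 only Gstp2 was called. The 46 wider pathway genes had 0 called and a median of 0.07. The other genes with the largest log2 fold changes, Gsta1 with -2.95 and Gpx3 with 2.65, also did not pass. Beside these values, the 6 fibroblast markers had a median log2 fold change of 0.99 and the 7 hepatocyte markers 0.01. The 4 cholangiocyte markers tested had a median of 1.37, 3 of them at an unadjusted p under 0.05 (Spp1 3.33, Epcam 1.55 and Krt19 1.18) and 0 called, the 3 B cell markers -0.59 and the 3 erythroid markers -0.49. Their part in the result was not tested.

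WT tumours against WT non-tumours called 5 of the 47 genes (10.6%), against 4.23% of all genes. Gstp2 rose, and Gpx1, Gstt2, Gstk1 and Sod1 fell, but with no filter on low values 0 were called. The groups did not overlap for 14 genes (29.8%, all genes 24.8%), 13 of them lower in tumours, including Cat, Sod2, Ephx1, Gsta3, Gclm and Prdx6. The median log2 fold change was -0.29 (all genes -0.02), but 0.14 without WT non-tumour 2, when 3 genes were called (Gstp2, Gstt2 and Gstk1), and 0.09 without WT tumour 3, when 7 were called. No gene was called without WT non-tumour 1 or 3 or WT tumour 1 or 2, nor with WT tumours 1 and 2 averaged as 1 sample, and 1 (Gpx1) with the replicate number as a block. Of the wider pathway list 7 of 46 genes were called. Akr1b8, an aldo-keto reductase gene, and Gpx8 were higher with 1.70 and 1.26, and Rgn, Ces1d, Ephx2, Mgst1 and Me1 were lower, with log2 fold changes from -4.97 for Rgn to -1.39 for Me1. The 8 pericentral hepatocyte genes were lower in every tumour than in any non-tumour, with a median log2 fold change of -3.09, 4 of them called, and their part in the result was not tested.

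GKO tumours against GKO non-tumours called 7 of the 45 genes tested (15.6%), against 11.7% of all genes. Pgd and Gss rose, and Gsta2, Gstp1, Gclc, Gstk1 and Txn1 fell. With no filter on low values only Pgd was called, and with the replicate number as a block 6 were. The groups did not overlap for 17 genes (37.8%, all genes 38.3%), a share near that of all genes, with Pgd, Gss and Srxn1 higher and 14 lower. Srxn1 had a log2 fold change of 0.93 (SE 0.31, limma adjusted p = 0.0925). The median was -0.26 against 0.20 for all genes. When each sample was scaled to the same median, the all-gene median became -0.01 and 10 genes were called, 1 higher (Pgd) and 9 lower, in place of 2 higher and 5 lower. Of all genes with an unadjusted p under 0.05, 68.2% were higher in tumours before and 47.3% after this scaling. Without GKO non-tumour 3 no gene was called, without GKO non-tumour 2 only Pgd, and without GKO tumour 2 or 3 there were 4, among them Gsta2, Gstp1 and Pgd. Of the wider pathway list 13 of 46 genes were called, 5 higher and 8 lower, from -3.06 for Rgn and -2.56 for Aox1 to 2.46 for Maff, a small MAF partner of NRF2. Col1a1, Col1a2, Col3a1 and Pdgfrb of the 6 fibroblast markers were called higher and Dcn lower, 4 of 7 pericentral markers were called lower, and their part in the result was not tested. Gpx2 and Slc7a11 were under the minimum mean in this fit.

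**Figure D5:**
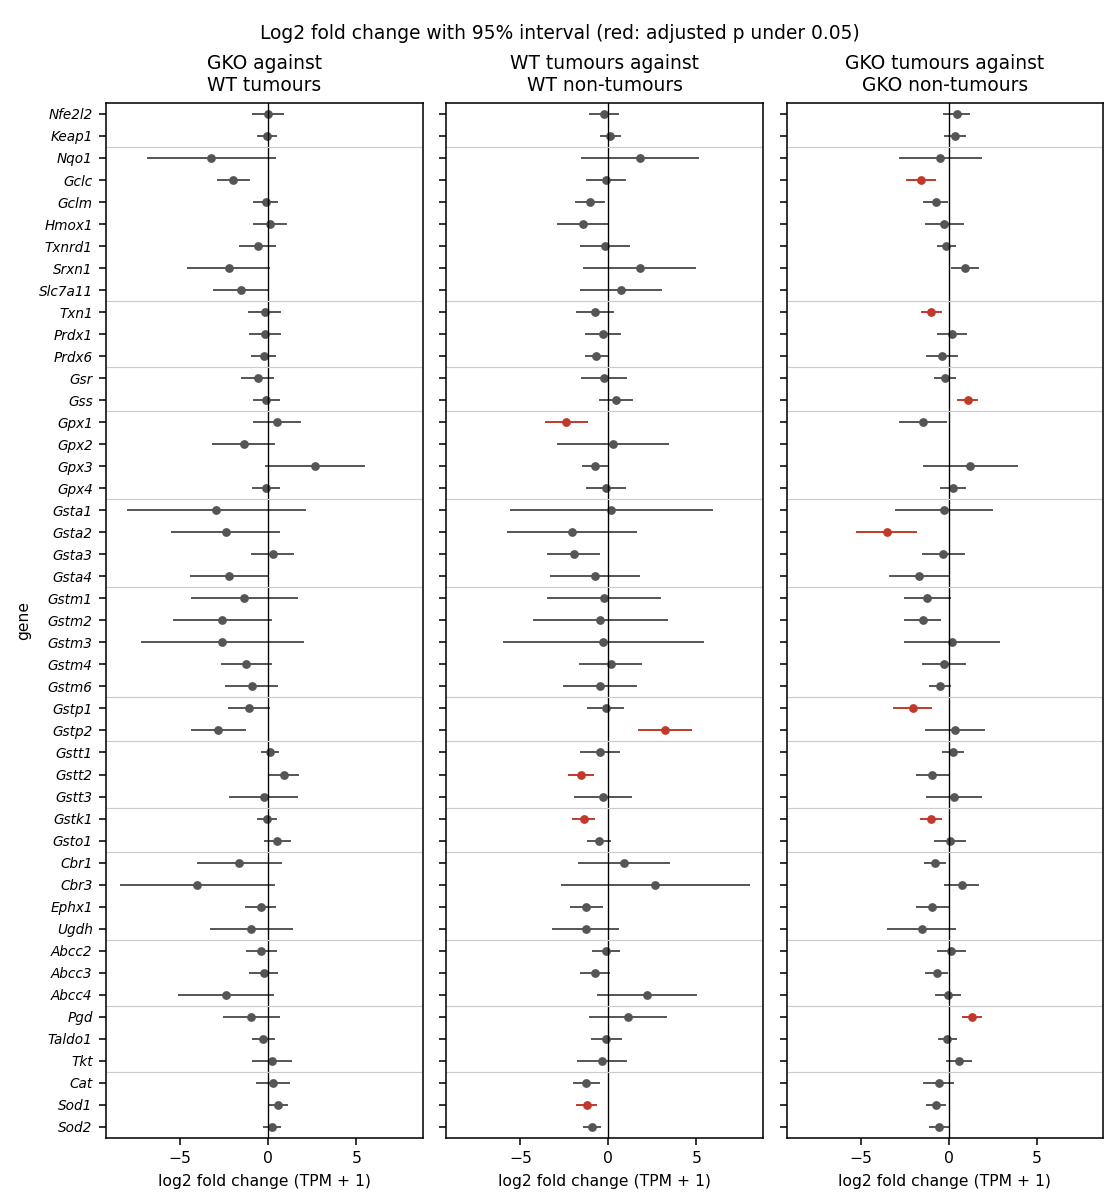
Log2 fold change of TPM + 1 (x axes, points) with its 95% interval (lines) for the 47 genes (y axis) in 3 comparisons. Red marks an adjusted p under 0.05: no gene in GKO against WT tumours, 5 in WT tumours against WT non-tumours and 7 in GKO tumours against GKO non-tumours, where Gpx2 and Slc7a11 have no point. The intervals of Nqo1, Cbr3, Gsta1 and Gstm3 are wide in the first and second panels, where WT groups held high and low samples.

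The interaction of genotype and tissue passed the test for 0 of the 47 genes by limma or voom, where 0.0142% of all genes were called. At an unadjusted p under 0.05 it was lower for 3 genes (6.38%, all genes 10.5%), Gstp1, Gstp2 and Gclc, with -1.89 (SE 0.64, limma adjusted p = 0.433) for Gstp1. Nqo1, Abcc4, Gpx3 and Cbr3 had -2.25, -2.22, 1.98 and -1.92. The median was 0.22 (all genes 0.23), and 0.01 (all genes 0.03) with all samples scaled to the same median. Without WT tumour 3, Abcc4 and Cbr1 were called, both lower.

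For GKO against WT non-tumours 0 of the 47 genes passed the test by limma or voom, as did 0% of all 13768 genes, and 4 (voom 5) had an unadjusted p under 0.05 (8.51%, all genes 5.8%). Of the 47 genes 41 were lower in GKO non-tumours, with a median of -0.64 (all genes -0.15), and 5 genes did not overlap (10.6%, all genes 13.2%): Nfe2l2, Abcc2, Gss and Cat lower and Gpx3 higher. The median was -0.21 without WT non-tumour 2. With all samples scaled to the same median it was -0.44, the all-gene median was 0.001, and the share of genes higher in GKO non-tumours among those with an unadjusted p under 0.05 went from 33.8% to 60.6%. Gstm3, Gsta1, Cbr3, Gstm2 and Gpx2 had the largest log2 fold changes, from -3.09 to -1.52, with adjusted p from 0.643 to 0.649, and in each of them WT non-tumours 1 and 3 were far below WT non-tumour 2.

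WT non-tumours against WT normal livers gave 0 called genes by limma or voom (0.00744% of all genes) and 8 at an unadjusted p under 0.05, all higher (17% of the set, 24.4% of all genes). They were Abcc2, Gsta3, Abcc3, Nfe2l2, Ephx1, Gstt3, Prdx6 and Hmox1. Of the set 45 genes were higher and 2 lower, the median was 0.70 (all genes 0.33), and 18 genes did not overlap (38.3%, all genes 33.9%), all higher. The median was 0.32 without WT non-tumour 2 and 0.26 with all samples scaled to the same median, which moved that of all genes to -0.02. The share of genes higher in non-tumours among all with an unadjusted p under 0.05 then went from 91.7% to 38.5%. Gsta1, Gstm3, Cbr3 and Gsta2 had log2 fold changes of 3.60, 3.56, 2.39 and 1.97, each with WT non-tumour 2 far above the others. Markers of other cells were also mostly higher in WT non-tumours, with median log2 fold changes of 0.95 for macrophage genes (Cd68 1.96), 1.34 for erythroid, 0.64 for fibroblast and 0.61 for endothelial genes, none called, and their part in the result was not tested.

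GKO non-tumours against GKO normal livers also gave 0 by limma or voom (0% of all genes) and 3 at an unadjusted p under 0.05, Nqo1, Cbr1 and Gstm3 (6.67%, all genes 5.2%). Nqo1 had 17.1, 12.5 and 12.9 TPM against 7.25, 7.11 and 8.85 and a log2 fold change of 0.79 (SE 0.21, limma adjusted p = 0.796). Gstm3 and Gsta1 had 1.16 and 1.02. The groups did not overlap for 5 genes, all higher (11.1%, all genes 8.73%), and the median was 0.16 against 0.08 for all genes. The 6 macrophage markers had a median of 1.19 and the 4 cholangiocyte markers tested -0.84, none called, and their part was not tested. Scaling to the same median took the corresponding share of higher genes from 82.5% to 63%.

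Between untreated GKO and WT normal livers no gene of the set was called by limma or voom (0% of all genes), none of the 45 tested had an unadjusted p under 0.05 (voom 1; all genes 3.96%), and 3 genes did not overlap (6.67%, all genes 7.95%): Gstm2 and Txn1 lower and Sod2 higher in GKO livers. The largest log2 fold change was that of Gstm3, with 19.2, 26.6 and 9.86 TPM in GKO and 25.7, 27.6 and 32.7 in WT livers, or -0.69 with a 95% interval from -1.46 to 0.07. Gpx3, Gstp2, Gstt2 and Gstm2 had 0.52, -0.50, 0.40 and -0.39. The 6 fibroblast markers were higher in every GKO than in any WT normal liver, with a median of 0.81, and their part in the result was not tested. The share of higher genes among all with an unadjusted p under 0.05 was 80% and became 62% with scaling to the same median. An exact permutation test of 1 gene with 3 samples in each group cannot give a p below 0.1.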

How the data were processed

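RNA-seq of 18 mouse liver and tumour samples was deposited by the authors as 1 table of TPM values. The submitters' processing notes name STAR 2.7.3a, featureCounts 2.0.0 and mm10, and the annotation is not given in the sources used here. GENCODE M21 supplied positions and lengths for 54809 of 54838 genes. With those lengths, 97.95% to 98.67% of the values of 30 reads or fewer were whole multiples of 1 read, within 0.02. Libraries held 11925055 to 20751348 reads. Each comparison used limma 3.58.1 (R 4.3.3, trend) on log2(TPM + 1) of its own samples, leaving out genes whose mean was under 0.5 TPM, and calls were made where p adjusted over all genes by the Benjamini-Hochberg method was under 0.05. The scripts were checked on simulated data. The pseudocount makes fold changes of low genes too small.

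The 47 genes and the lists were chosen with earlier results of these data known. Values are given in full for the regulators, the 7 reporters and, per comparison, called genes or, where fewer than 5 passed, the 5 largest changes. Alternatives were a pseudocount of 0.1, other filters, scaling, quantile normalization, all 18 samples, the replicate number as a block, leaving out samples, and, chosen after seeing the data, voom on reads, averaging WT tumours 1 and 2, and counts without Slc7a11 and Gpx2. The labels name no animals. Same-numbered samples deviated together over 0.1 in all 3 pairs only between GKO and WT tumours (0.101, 0.12 and 0.197 across genes).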

Additional observations from a re-analysis of the deposited data

How the results depend on the processing

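With the replicate number as a block, the counts were 0 of the set between GKO and WT tumours (15 at an unadjusted p under 0.05 in place of 6), 1 for WT tumours against WT non-tumours, where the unblocked fit called 5, and 6 for GKO tumours against GKO non-tumours in place of 7, and it changed no other count. Leaving out 1 sample gave 0 to 10 called genes between GKO and WT tumours, 0 to 7 for WT tumours against WT non-tumours, 0 to 6 for GKO tumours against GKO non-tumours and 0 to 2 for the interaction of genotype and tissue, and 0 in the other comparisons. With no filter on low values, WT tumours against WT non-tumours had 0 called genes and GKO tumours against GKO non-tumours had 1. With all 18 samples in one fit, GKO against WT tumours had 1 (Gclc) and WT tumours against WT non-tumours 10. With WT tumours 1 and 2 averaged as 1 sample, WT tumours against WT non-tumours had 0. With voom, GKO tumours against GKO non-tumours had 12. The cause of these differences was not tested. Among the fits with other settings, the share of all genes called is given only for GKO against WT tumours without WT tumour 3. The other counts, here and above, are therefore not set against all genes. Some log2 fold changes of genes that were not called changed sign when 1 sample was left out. Between GKO and WT tumours, Hmox1 ran from -0.269 (without GKO tumour 2) to 0.31 and was -0.155 without WT tumour 3. Nfe2l2 ran from -0.274 to 0.265 (without GKO tumour 1) and was 0.26 without WT tumour 3. Gclm ran from -0.437 to 0.0207 (without GKO tumour 1) and Keap1 from -0.161 to 0.0734 (without GKO tumour 2). For WT tumours against WT non-tumours, Keap1 was -0.0268 without WT non-tumour 1 and ran up to 0.239. Txnrd1 ran from -0.544 to 0.332 (without WT non-tumour 2; 0.305 without WT tumour 3) and Gclc from -0.468 to 0.239 (without WT tumour 3), with 0.139 without WT non-tumour 2. For GKO tumours against GKO non-tumours, Hmox1 ran from -0.592 to 0.207 (without GKO non-tumour 1) and Nqo1 from -1.63 to 0.623 (without GKO tumour 3). Depth limits Slc7a11 and Gpx2, which had 3 reads or fewer in most samples, and shared sequence limits Gsta1, Gsta2, Gstp1, Gstp2, Gstm1, Gstm3, Gpx4, Sod2 and Gstt3.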
